A study of Mus musculus with 4 samples.

Results

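The 10 genes described here serve motor neurons, acetylcholine signalling and the neuronal intermediate filaments: Chat, Slc18a3, Slc5a7, Isl1, Mnx1, Prph, Nefl, Nefm, Nefh and Ina. They were taken by symbol, as every probe set whose single gene symbol in the platform annotation is one of these names, and this gave 17 of the 45101 probe sets on the array. A probe set gathers several short probes of 1 transcript into 1 value. Mouse tissue labelled "brain, hindbrain and spinal cord" gave total RNA for 4 Affymetrix arrays, 2 with cDNA from Nugen kit amplification and 2 with antisense RNA (aRNA) from T7-based amplification. In each preparation 1 array carries the number 1 and the other the number 0, so the arrays are called cDNA 1, cDNA 0, aRNA 1 and aRNA 0. The labels give no strain, genotype, treatment or age, do not say what the numbers mean or how many animals were pooled, and do not say whether the preparations share RNA. Levels are given as intensity on the authors' linear scale, and differences as log2(intensity + 16), a scale that understates the change of dim probe sets.

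Motor neurons are the cells of brainstem and spinal cord that drive muscle, and they signal with acetylcholine. The cholinergic set of proteins makes this transmitter, loads it into vesicles and takes its precursor choline back up at the terminal. Isl1 and Mnx1 are homeodomain transcription factors that help set motor neuron identity in the embryo. Neurofilaments are intermediate filaments of neurons, built from a light, a medium and a heavy chain together with internexin or peripherin, and they fill large axons such as those of motor neurons.

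The sequences upstream of Chat and Slc18a3 are shown because these 2 genes form 1 locus, with Slc18a3 lying inside the annotated span of Chat on the same strand, and because at the probe sets of both the cDNA arrays read under the aRNA arrays, a difference called for Slc18a3 only. Each line holds the 250 bases before the annotated start, 5′ to 3′, from RefSeq (GRCm38.p6), at chr14:32465910-32466159 for Chat and chr14:32464851-32465100 for Slc18a3, both on the minus strand. Capitals mark matches, on either strand, to the TATA box (TATAAA), the GC box (GGGCGG), the CCAAT box, TAAT as the core of many homeodomain sites, and TGACG as the core of the cAMP response element, and no matches overlap in these 2 windows.
Chat: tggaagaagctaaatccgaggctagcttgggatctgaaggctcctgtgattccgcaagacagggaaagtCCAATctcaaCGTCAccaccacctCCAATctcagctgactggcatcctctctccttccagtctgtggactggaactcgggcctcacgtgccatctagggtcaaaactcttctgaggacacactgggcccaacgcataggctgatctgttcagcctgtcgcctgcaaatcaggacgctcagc
Slc18a3: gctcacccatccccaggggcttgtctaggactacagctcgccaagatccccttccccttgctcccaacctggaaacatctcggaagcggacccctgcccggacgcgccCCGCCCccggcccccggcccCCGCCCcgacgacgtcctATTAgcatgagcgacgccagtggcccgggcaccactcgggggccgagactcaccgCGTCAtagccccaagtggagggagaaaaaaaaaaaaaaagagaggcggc
The Chat window holds CCAAT at 2 places and TGACG at 1. The Slc18a3 window holds GGGCGG at 2 places, TAAT at 1 and TGACG at 1. Among the 32851 windows of this length in the table, CCAAT occurs in 33.8%, GGGCGG in 32.7%, TAAT in 54.9%, TGACG in 17.8% and TATAAA in 12.4%. Of the members, 7 have a window in the table, and TATAAA was found once each in those of Prph and Slc5a7. Nefl, Nefm and Nefh have no entry. These matches describe letters and not binding.

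Before the members, the arrays themselves differed in other ways. The median intensity was 386 on cDNA 1 and 372 on cDNA 0, against 342 on aRNA 1 and 338 on aRNA 0. The background level, the 95th percentile of 27 control probe sets for Bacillus transcripts, was 249 on cDNA 1 and 212 on cDNA 0 and 126 on aRNA 1 and 123 on aRNA 0. On aRNA 0, Xist, the RNA of the inactive X chromosome, read 8.55 on the log2 scale against 11.94 to 15.44 on the other arrays, and the Y-linked gene Eif2s3y read 13.12 against 4.75 to 7.92, so this array carried other sex-linked transcripts than the rest. Of 7 listed hindbrain and cerebellum markers, 5 were above background on all 4 arrays. The summed intensity of the 7 was 108099 on cDNA 1 and 43563 on cDNA 0 against 2669 on aRNA 1 and 4108 on aRNA 0. The highest cDNA readings in this list were those of Cbln1, Zic1, Gabra6 and Pcp2. Its Hox gene Hoxb2 went the other way, at 8.15 on cDNA 1 and 8.02 on cDNA 0 against 9.34 on aRNA 1 and 9.94 on aRNA 0, on the log2 scale. The list's other Hox gene, Hoxa2, overlapped between the preparations. It read 6.52 on cDNA 1 and 9.07 on cDNA 0 and 6.91 on aRNA 1 and 7.74 on aRNA 0. It was under background on cDNA 1 and aRNA 1. Of the forebrain markers 1 of 5 was above background on all 4 arrays and 2 were under it on all 4. Of the spinal cord Hox markers 0 of 9 were above it on all 4 arrays and 3 were under it on all 4. Hoxa9, Hoxc10 and Hoxa10 were above background on the aRNA arrays only, and Hoxd9 on the cDNA arrays only. Hoxa10 itself overlapped between the preparations, at 7.22 on cDNA 1, 7.79 on cDNA 0, 7.28 on aRNA 1 and 7.41 on aRNA 0 (log2 scale). It counts as aRNA only because the background was higher on the cDNA arrays. All 9 pan-neuronal markers were above background on all 4 arrays.

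**Figure D1:**
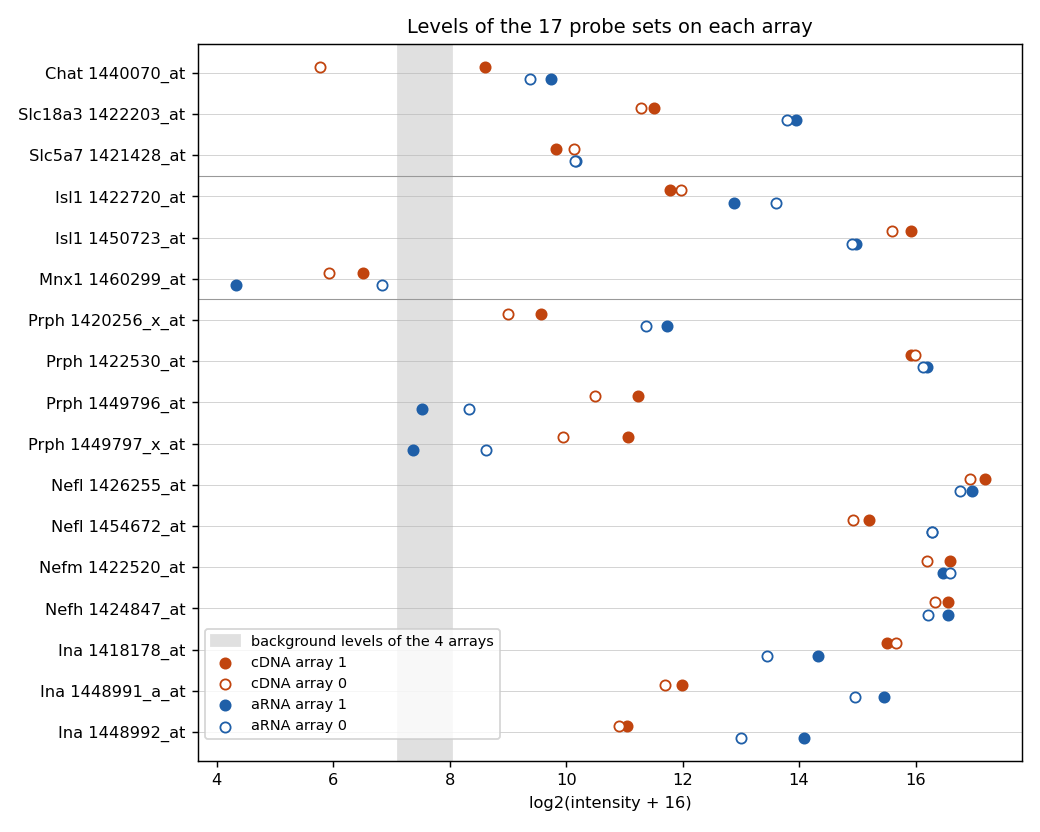
Level of each of the 17 probe sets on each array, as log2(intensity + 16), with the cDNA arrays in red and the aRNA arrays in blue, filled for number 1 and open for number 0. The grey band spans the background levels of the 4 arrays. The Mnx1 points lie under their arrays' background, and the probe sets of Nefl, Nefm and Nefh lie far to the right of the band.

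The first comparison set cDNA against aRNA target. Since the labels do not say that the preparations share RNA, amplification method and RNA source cannot be told apart. Slc18a3 fell on cDNA, and its neighbour Chat was by a narrow margin too dim to be tested. The single probe sets of Nefm and Nefh were not told apart, and the probe sets of Isl1, Prph and Ina went in opposite directions within each gene. Of the 15 member probe sets that passed the filter on dim values, 4 were called higher and 6 lower on cDNA and 5 were not called (limma adjusted p under 0.05). The Prph probe sets called higher passed the filter only through their cDNA readings. With cDNA 1 left out, 2 were called higher. Among all 22519 probe sets tested 43.2% were called, 20.2% higher and 22.9% lower, so calls were common everywhere. The arrays of the preparations did not overlap at 12 of the 15, and at 73.8% of all probe sets tested. The median member difference was −0.18, against −0.11 over all probe sets tested. The 15 probe sets belong to 8 genes and those of 1 gene are not independent. Chat and Mnx1, with 1 probe set each, were left out by the filter. Chat missed it narrowly, with a mean of 8.379 over the 4 arrays against a filter level of 8.385. In RNA from whole tissue, fewer cells of a type and less RNA per cell cannot be told apart. With no label on the animals, each p-value measures only the spread between these arrays. For aRNA this spread holds the difference in sex-linked transcripts given above. For cDNA it holds the difference in the summed hindbrain and cerebellum markers given above, and how far it is technical is not known.

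Slc18a3 encodes VAChT, the transporter that loads acetylcholine into synaptic vesicles. Its probe set 1422203_at read 2903 on cDNA 1 and 2484 on cDNA 0, against 15726 on aRNA 1 and 14236 on aRNA 0. The preparations did not overlap and the arrays within each lay close together. The difference was −2.47 ± 0.26 (limma SE, adjusted p = 0.000164), a level 5.54-fold higher on aRNA. Chat encodes choline acetyltransferase, the enzyme that makes acetylcholine. Its probe set 1440070_at read 375 on cDNA 1 and 39.0 on cDNA 0, against 842 on aRNA 1 and 650 on aRNA 0. Both cDNA arrays lay under both aRNA arrays, but cDNA 0 was under background, so the level was at least 2.53-fold higher on aRNA. Tested without the filter, Chat did not pass (−2.37, limma adjusted p = 0.114), and with a pseudocount of 64 it did (−1.92, adjusted p = 0.0448).

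Slc5a7 encodes the choline transporter of cholinergic terminals, which brings choline back for reuse. It read 886 on cDNA 1 and 1109 on cDNA 0 and 1138 on aRNA 1 and 1120 on aRNA 0 at probe set 1421428_at. The cDNA arrays lay just under the aRNA arrays and the difference was not called (−0.18, 95% interval −1.06 to 0.69, limma adjusted p = 0.724). This interval does not reach the difference of Slc18a3 (−2.47), although the 2 differences were not tested against each other.

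Isl1, the LIM homeodomain factor of motor neurons and also of sensory and some forebrain neurons, gave opposite calls at its 2 probe sets. At 1450723_at it read 61905 on cDNA 1 and 49647 on cDNA 0, against 32417 on aRNA 1 and 30680 on aRNA 0, a difference of 0.81 ± 0.19 (limma SE, adjusted p = 0.00905). At 1422720_at it read 3491 on cDNA 1 and 4010 on cDNA 0, against 7522 on aRNA 1 and 12401 on aRNA 0, a difference of −1.36 ± 0.31 (limma SE, adjusted p = 0.00719). The preparations overlapped at neither probe set. With cDNA 1 left out the call at the first no longer passed (adjusted p = 0.0775), nor did it without an intensity trend (0.0739), and with aRNA 0 left out the call at the second did not (0.0538).

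Mnx1 (HB9), a homeodomain factor that marks motor neurons as they form, was under background on all 4 arrays. Its probe set 1460299_at read 74.97 on cDNA 1 and 45.1 on cDNA 0 and 4.01 on aRNA 1 and 97.9 on aRNA 0. No fold is given for it, and a low reading at 1 probe set says only that the transcript was not detectable here.

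The 3 neurofilament chains read far above background on every array. Nefh, the heavy chain, read 96443 on cDNA 1 and 82544 on cDNA 0 and 95904 on aRNA 1 and 75816 on aRNA 0 at 1424847_at. The preparations overlapped and the difference was 0.065 (95% interval −0.35 to 0.48, limma adjusted p = 0.797), with a sign that turned under median centring (−0.084). Nefm, the medium chain, read 98851 on cDNA 1 and 74686 on cDNA 0 and 90698 on aRNA 1 and 98754 on aRNA 0 at 1422520_at. Here too the preparations overlapped (−0.14, 95% interval −0.56 to 0.28, limma adjusted p = 0.571).

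Nefl, the light chain, on which the other chains assemble, was read by 2 probe sets that differed. At 1426255_at it read 149683 on cDNA 1 and 125074 on cDNA 0 and 128914 on aRNA 1 and 111452 on aRNA 0, and the preparations overlapped (0.19, 95% interval −0.19 to 0.57, limma adjusted p = 0.384). At 1454672_at it read 37564 on cDNA 1 and 31008 on cDNA 0, against 79334 on aRNA 1 and 79858 on aRNA 0. These did not overlap, and this probe set fell by 1.22 ± 0.18 on cDNA (limma SE, adjusted p = 0.000934).

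Ina encodes internexin alpha, a filament protein of central neurons. At 1418178_at it read 46533 on cDNA 1 and 51706 on cDNA 0, against 20466 on aRNA 1 and 11160 on aRNA 0, and was higher on cDNA by 1.70 ± 0.28 (limma SE, adjusted p = 0.00167). The probe set 1448991_a_at read 4072 on cDNA 1 and 3286 on cDNA 0, against 45122 on aRNA 1 and 31864 on aRNA 0. This was the largest difference among the members, −3.37 ± 0.26 (limma SE, adjusted p = 4.85e-05), a level 10.3-fold higher on aRNA. The probe set 1448992_at read 2101 on cDNA 1 and 1900 on cDNA 0, against 17423 on aRNA 1 and 8209 on aRNA 0, and also fell on cDNA, by 2.57 ± 0.37 (limma SE, adjusted p = 0.000774). The arrays of the preparations did not overlap at any of the 3, and the platform annotation cites the same source sequence for all of them.

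Prph encodes peripherin, a filament protein of peripheral neurons and of central neurons with peripheral axons, motor neurons included. The probe set 1422530_at read 62263 on cDNA 1 and 64913 on cDNA 0 and 74914 on aRNA 1 and 71751 on aRNA 0. The cDNA arrays lay a little lower and the difference was not called (−0.21, 95% interval −0.58 to 0.17, limma adjusted p = 0.34). The other 3 probe sets have no source accession in the platform annotation, and on every array they read far under 1422530_at. The probe set 1420256_x_at read 740 on cDNA 1 and 496 on cDNA 0, against 3386 on aRNA 1 and 2646 on aRNA 0, and fell by 2.27 ± 0.39 on cDNA (limma SE, adjusted p = 0.00183). The probe set 1449796_at read 2395 on cDNA 1 and 1429 on cDNA 0, against 168 on aRNA 1 and 304 on aRNA 0, and was 7.69-fold higher on cDNA (limma adjusted p = 0.00185). Its aRNA 1 reading, like that of 1449797_x_at (149), lay only a little above the background of 126 on that array. On the log2 scale the aRNA means of 1449796_at and 1449797_x_at lay under the filter level of 8.385. These probe sets were therefore tested only through their cDNA readings. The probe set 1449797_x_at read 2118 on cDNA 1 and 965 on cDNA 0, against 149 on aRNA 1 and 381 on aRNA 0, 5.66-fold higher on cDNA (limma adjusted p = 0.00948, and 0.0545 without cDNA 1).

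All 3 member genes with several called probe sets, Isl1, Prph and Ina, had calls in both directions. Of the 1688 such genes on the whole array, 766 (45.4%) did. The spread between the highest and the lowest probe set of 1 gene was 5.22 for Prph, 5.06 for Ina, 2.18 for Isl1 and 1.41 for Nefl. No single direction can be given for these 4 genes.

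**Figure D2:**
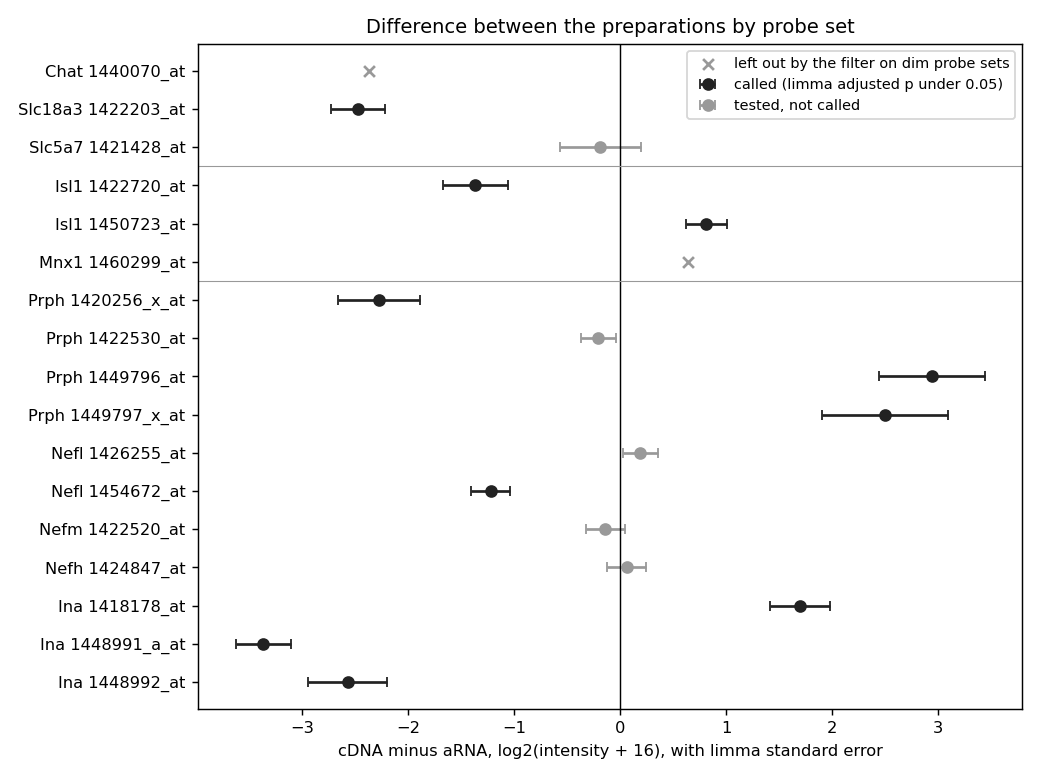
Difference between the preparations for each probe set, as cDNA minus aRNA on the log2(intensity + 16) scale, where points right of 0 are higher on cDNA and bars are the limma standard error. Black points were called, grey points were tested and not called, and crosses mark Chat and Mnx1, which the filter left out. Ina runs from −3.37 to 1.70 and Prph from −2.27 to 2.94 across their probe sets, while Nefm and Nefh lie near 0.

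Related genes were read with 1 probe set each, that of the highest mean level. On this basis 44.8% of the 11945 genes tested were called, 21.9% higher and 22.9% lower, with a median of −0.06. Of 7 tested genes of acetylcholine synthesis, packaging and choline supply, 3 were lower on cDNA, none higher, and 4 were not called (median −0.74). The 3 were Slc18a3, Pcyt1a (−1.90, adjusted p = 0.00326), an enzyme of phosphatidylcholine synthesis, and the choline transporter Slc44a1 (−1.05, adjusted p = 0.0119), both from the limma fit. The median was −0.18 when all tested probe sets of a gene were pooled, and another probe set of Slc44a1 was called higher. Of the 2 tested genes of acetylcholine breakdown neither was called, among them Ache, acetylcholinesterase (−0.48, limma adjusted p = 0.163).

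Acetylcholine receptor genes were mostly dim. Of 17 on the platform, 5 were above background on all 4 arrays and 5 under it on all 4. Of the 5 tested, 1 was called, the muscle-type subunit gene Chrnb1, higher on cDNA by 2.16 ± 0.50 (limma SE, adjusted p = 0.00797). Of 5 forebrain cholinergic genes on the platform, 1 was above background on all arrays and none was tested. Skeletal muscle markers were near background, with 1 of 10 above it on all 4 arrays, 5 under it on all 4 and a summed intensity of 1034 on cDNA 1 and 1408 on cDNA 0 and 1256 on aRNA 1 and 917 on aRNA 0.

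Of 13 tested motor neuron transcription factors, Isl1 included, 4 were higher on cDNA, 1 was lower and 8 were not called (median 0.50). Lhx4, a LIM homeodomain factor of developing motor neurons, differed by 2.91 ± 0.36 (limma SE, adjusted p = 0.00037), Nkx6-2, a homeodomain factor of the ventral spinal cord and of oligodendrocytes, by 1.96 (adjusted p = 0.00168 in limma) and Bcl6 by 1.78 (adjusted p = 0.000612 in limma). Olig2, which serves motor neuron progenitors and the oligodendrocyte lineage, was the 1 lower (−1.12, limma adjusted p = 0.0185). Isl2, the relative of Isl1, was not called (−0.19, limma adjusted p = 0.768). Of 13 tested motor neuron subtype and trophic genes, 3 were higher, 2 lower and 8 not called (median 0.31). The microtubule-severing protein gene Fign gave 3.59, Cpne4 −2.25 and Aldh1a2, an enzyme of retinoic acid synthesis, 1.92, with adjusted p of 0.000757, 0.000713 and 0.0146 in limma.

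Of the 5 neuronal intermediate filament genes, Ina was called higher at 1418178_at, the probe set kept for it, and the other 4 were not (median 0.07). Of 7 tested other intermediate filament genes, 4 were higher on cDNA, none lower and 3 not called (median 1.23). Vim, vimentin of glia and vessel cells, gave 4.63 ± 0.48 (limma SE, adjusted p = 0.000156), the lamin gene Lmna 3.17 (adjusted p = 0.000108 in limma, with calls in both directions at its other probe sets) and Lmnb2 1.92 (adjusted p = 0.00257 in limma). Of 22 axon cytoskeleton and transport genes, 3 were higher, 6 lower and 13 not called (median −0.33). The microtubule-associated protein gene Map1a gave 1.70, Gap43, a growth cone protein, −1.60 and the dynactin subunit gene Dctn1 −1.58, with adjusted p of 0.000755, 0.00347 and 0.00325 in limma. Another probe set of Dctn1 was called higher. Kif5a, a kinesin motor of axons that carries neurofilaments, was higher by 0.93 ± 0.17 (limma SE, adjusted p = 0.00278).

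**Figure D3:**
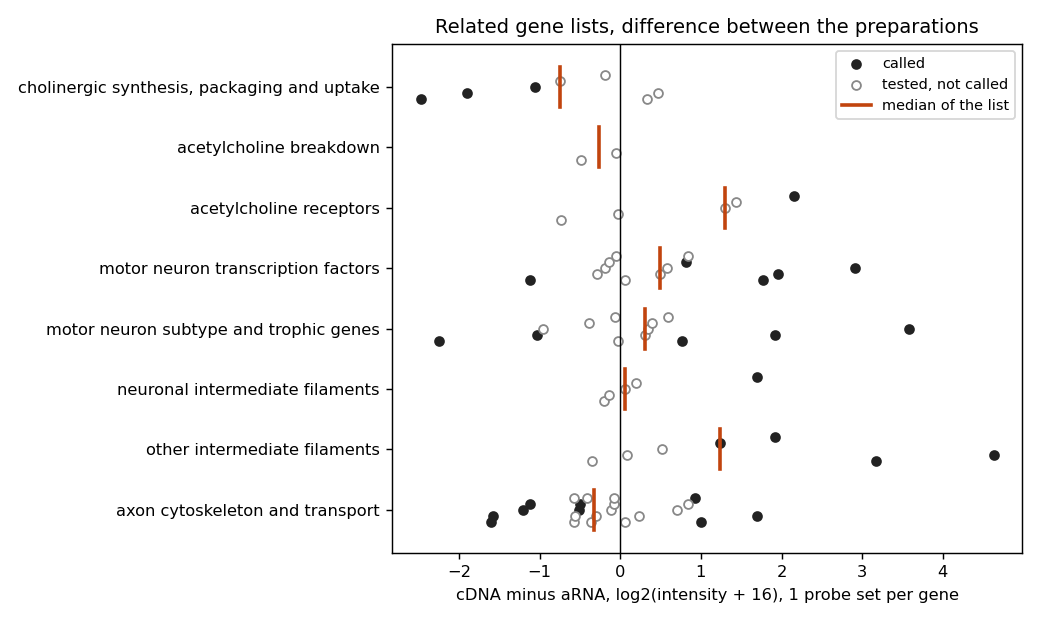
Difference between the preparations for each tested gene of 8 related lists, as cDNA minus aRNA on the log2(intensity + 16) scale with 1 probe set a gene. Filled points were called, open points were not, and the red bar is the list's median, which runs from −0.74 for acetylcholine synthesis, packaging and uptake to 1.30 for the 5 acetylcholine receptor genes.

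Primary sensory neurons also use Isl1 and Prph. Of their 7 listed markers on the platform, 2 were above background on all 4 arrays and none under it on all 4. Their summed intensity was 9372 on cDNA 1 and 9546 on cDNA 0, against 1452 on aRNA 1 and 2431 on aRNA 0. Tac1, a tachykinin gene that central neurons also use, made up 5922 on cDNA 1 and 7074 on cDNA 0, against 89.0 on aRNA 1 and 751 on aRNA 0. Without it the sum of the other 6 was 3450 on cDNA 1 and 2472 on cDNA 0, against 1363 on aRNA 1 and 1680 on aRNA 0. Of the 3 tested, 2 were higher on cDNA, Tac1 (at least 19.7-fold) and Pou4f1 (at least 4.42-fold), where 21.9% of all genes tested were called higher. Both had an aRNA mean under the filter level of 8.385, so they were tested only through their cDNA readings. P2rx3 was not called (−0.48, limma adjusted p = 0.443). The part of such cells in the readings of Isl1 and Prph was not tested.

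The numbers were compared next, cDNA 1 and aRNA 1 against cDNA 0 and aRNA 0, in a model with preparation as a term. No member was called in either direction by limma, against 0.0622% of all probe sets (14 of 22519), 0.0533% higher and 0.00888% lower. At an unadjusted p under 0.05 it was 0 members and 1319 probe sets. The lowest adjusted p among the members was 0.866. The member differences ran from −0.46 (Isl1 at 1422720_at) to 0.61 (Ina at 1448992_at) with a median of 0.18, against −0.01 over all probe sets tested.

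Nefh was higher on the array numbered 1 in both preparations, by 0.22 for cDNA and 0.34 for aRNA (0.28, 95% interval −0.01 to 0.58, limma adjusted p = 0.866). Nefl at 1426255_at likewise gave 0.26 and 0.21 (0.23, 95% interval −0.02 to 0.49, limma adjusted p = 0.871). With quantile normalization the difference shrank to 0.10 for Nefh and 0.012 for Nefl at this probe set. Nefm gave 0.40 for cDNA and −0.12 for aRNA, and Prph at 1422530_at −0.06 and 0.06. Ina at 1448991_a_at gave 0.31 and 0.50, and Slc18a3 0.22 and 0.14. These are differences of under 1.5-fold that the test did not tell from 0.

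Of the 15 tested member probe sets, 7 were above on number 1 in both preparations and 1 was below in both, against 24.9% and 26.6% of all probe sets tested. The 7 are those of Slc18a3, Isl1 (1450723_at), Prph (1420256_x_at), Nefl (1426255_at) and Nefh and 2 of Ina. The 1 below was Isl1 at 1422720_at. The 2 probe sets of Isl1 thus differed in sign here as well. With quantile normalization 6 were above and 2 below in both preparations, against 24.7% and 26% of all probe sets tested. Chat read 375 on cDNA 1 against 39.0, under background, on cDNA 0, at least 1.72-fold, and 842 on aRNA 1 against 650 on aRNA 0.

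None of the related lists had a called gene in this comparison, in which 0.0837% of all genes were called, every one of them higher on number 1. The largest difference among their tested genes was that of the filament gene Gfap, 3.20 (limma adjusted p = 0.265), with 1.14 for cDNA and 5.27 for aRNA. Among the microglia markers, 2 of 7 tested were called higher on number 1, Tyrobp and C1qa. In both preparations 4 of the 7 were above on number 1. Cx3cr1 (−0.68) and Tmem119 (−0.75) were lower on cDNA 1 than on cDNA 0, and P2ry12 (−0.21) on aRNA 1 than on aRNA 0. The summed intensity of the 7 was 39742 on cDNA 1 and 63316 on aRNA 1 against 24323 on cDNA 0 and 10340 on aRNA 0. All 7 were above background on all 4 arrays. Their part in the small member differences was not tested.

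**Figure D4:**
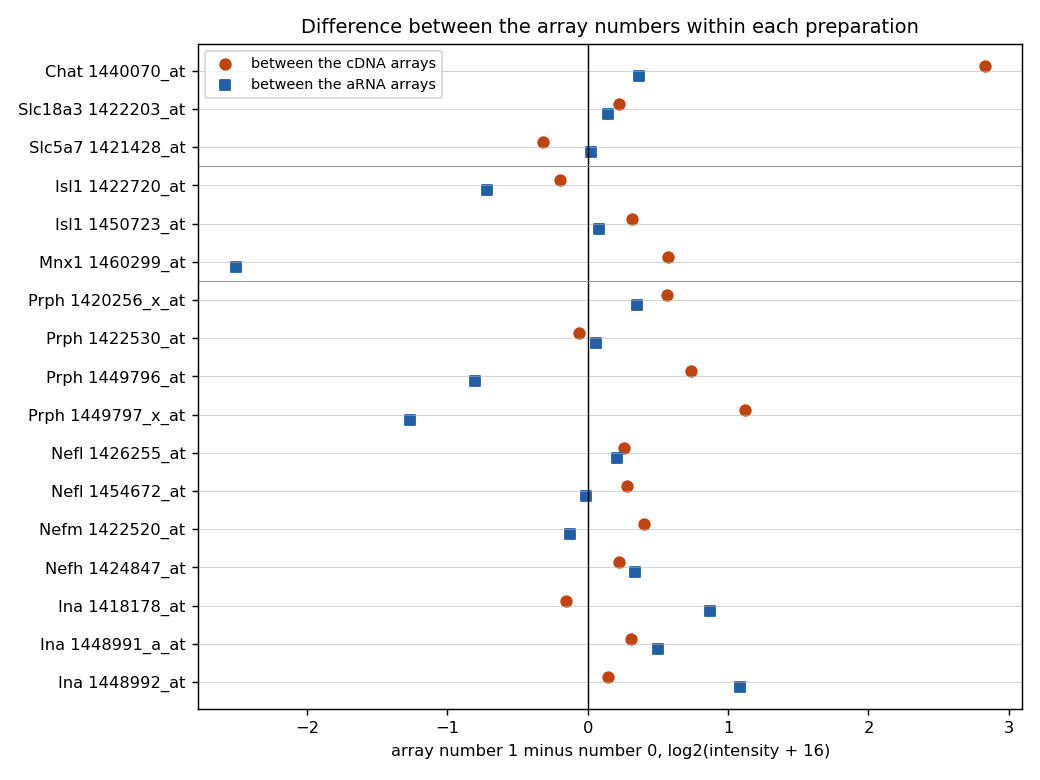
Difference between the array numbered 1 and the array numbered 0 for each probe set, on the log2(intensity + 16) scale, with circles for the cDNA pair and squares for the aRNA pair. Most filament points lie within 0.5 of 0, and the widest gaps between circle and square are those of Mnx1 and Chat, each with a reading under background, and of Prph at 1449797_x_at (1.12 and −1.27).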

How the data were processed

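The authors' deposited table holds intensity on a linear scale without detection calls. How probes were summarised is not stated in the labels or the table. All 4 arrays had a 2% trimmed mean of 2500.02, so the values were already scaled and were kept as they stand. The number of arrays limits the precision. The 64 control probe sets were left out, and the 22519 of 45037 probe sets with a mean log2(intensity + 16) at or above the median (8.38) were tested with limma 3.58.1 in R 4.3.3 (intensity trend, Benjamini-Hochberg over all tested, threshold 0.05), with 2 residual degrees of freedom between the preparations and 1 between the numbers. Fits were checked on simulated data. A probe set under background on an array of the dimmer group has a fold given as a lower bound. The platform annotation names 1 gene for 34945 probe sets, more than 1 for 932 and no gene for 9160, with symbols updated through RefSeq. All probe sets of the members are named, and of each related list up to 3 called genes with the largest difference, with a few tied to a member by role (Ache, Isl2, Kif5a) or singled out after their values were seen (Olig2). The members and lists were chosen with earlier results of these data known. The array numbers do not pair the arrays by the labels, and the differences between the numbers correlated at 0.0412 (Pearson's r over the tested probe sets) between the preparations, a description. Alternatives were median centring, quantile normalization, pseudocounts of 1 and 64, no filter, a filter at the 75th percentile, no trend, each array left out, the number as a block, and no probe sets named _x_at, _s_at or _a_at. Figures used matplotlib 3.10.9.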

Additional observations from a re-analysis of the deposited data

Results flagged for a closer look

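Between the arrays numbered 1 and 0, 2 Prph probe sets moved in opposite directions in the 2 preparations by at least 0.5 on each side while above background on all 4 arrays. The probe set 1449796_at gave 0.74 for cDNA and −0.80 for aRNA. The probe set 1449797_x_at gave 1.12 and −1.27. With 1 array on each side the difference between the preparations was not tested. In all, 8 of the 17 member probe sets had opposite signs, most of them by less.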

How the results depend on the processing

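Between the preparations 4 member probe sets were called higher on cDNA and 6 lower. A filter at the 75th percentile gave 2 higher and 5 lower of 11 tested. The Prph probe sets called higher were not among these 11. Without an intensity trend it was 3 higher and 6 lower. Without the probe sets named _x_at, _s_at or _a_at it was 3 higher and 4 lower of 12 tested. A pseudocount of 64 gave 4 higher and 7 lower of 16 tested, Chat among the lower. With the array number as a replicate block it was 4 higher and 6 lower, as in the fit without it, and no call changed. Of 188 values of single probe sets under other settings, 180 kept their direction and side of the threshold and 4 calls were lost: Isl1 at 1450723_at without cDNA 1 and without a trend, Isl1 at 1422720_at without aRNA 0, and Prph at 1449797_x_at without cDNA 1. The cause was not tested. Signs turned for 4 values that were not called: Nefh at −0.084 with median centring, and with 1 array left out Nefh ran from −0.10 (without aRNA 0; −0.047 without cDNA 1) to 0.23 and Nefm from −0.34 to 0.063 (without cDNA 0). Between the numbers no setting gave a call (lowest adjusted p 0.726), and 7 of 113 values changed sign, all near 0: Prph at 1422530_at (−0.034 with median centring, −0.16 with quantile normalization), Prph at 1449796_at (0.017 with quantile normalization, 0.026 with a pseudocount of 64), Prph at 1449797_x_at (0.011 with a pseudocount of 64), and, with quantile normalization, Nefl at 1454672_at (−0.026) and Nefm (−0.066). Leaving out 1 array leaves the numbers comparison only the difference within the other preparation, a value with no test. Readings under background have no firm size, which limits Chat and Mnx1.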
